A study of Mus musculus with 18 samples.

Results

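The unfolded protein and ER stress genes were read in the livers of 18 male C57BL/6 mice. The 10 genes are Hspa5, Hsp90b1, Dnajb9, Herpud1, Xbp1, Atf4, Ddit3, Atf3, Trib3 and Asns. They were taken by name, with earlier results of these data known, as all probes whose accession maps to 1 of these symbols, and they make up 12 of the 28019 named probes and 10 of the 21149 named genes on the arrays. Atf4 and Dnajb9 have 2 probes each, and every probe of the 10 genes lay well above background on all 18 arrays. Where a gene has 2 probes, the brighter was used unless the other is named.

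The groups were LFD (4 mice on a diet with 10% of its energy as fat, labelled as given no treatment), LFD-MTX50 (5 mice on the same diet given methotrexate), HFD (4 mice on a 60% fat diet, labelled as given no treatment) and HFD-MTX50 (5 mice on the 60% fat diet given methotrexate). Diets began at 6 weeks of age and dosing after 10 weeks of feeding. Methotrexate, a folate antagonist that blocks dihydrofolate reductase, was injected into the peritoneum at 50 mg/kg for 5 rounds, and livers were taken 1 week after the last of them. The labels mention no vehicle injection for the untreated mice. All values are log2 levels relative to the 75th percentile of the same array, which is set to 0, so that a difference of 1 is a 2-fold difference.

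Proteins that fold badly in the endoplasmic reticulum (ER) set off the unfolded protein response through sensors in the ER membrane. IRE1 splices the mRNA of Xbp1, ATF6 is cut to release a transcription factor, and PERK phosphorylates eIF2alpha, which slows translation in general while favouring that of Atf4. The same phosphorylation is made by kinases that sense amino acid shortage, double-stranded RNA or lack of haem, a wider programme called the integrated stress response. The hepatocyte secretes most plasma proteins, and its ER carries a heavy folding load. The arrays measure the amount of mRNA of these genes, and neither the splicing of Xbp1 nor the amount of ATF4 protein.

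The promoters of the members were searched for short elements known from these pathways, and the 5 with a match are shown. They include Hspa5 and Hsp90b1, which varied together across mice, and Herpud1 and Asns, which passed a test with methotrexate. Dnajb9, which varied with Hspa5 as well, had no match, nor did Atf4, which passed a test between the diets, Xbp1, Ddit3 or Trib3. A link between a match and the levels was not tested. RefSeq windows of assembly GRCm38.p6, from 250 bases before to 50 after the start of transcription, were available for 10 of 10 members and for 32851 starts in all. Both strands were searched for 6 elements: the ER stress response element (CCAAT, then any 9 bases, then CCACG), its second form (ATTGG, then any 1 base, then CCACG), the unfolded protein response element TGACGTGG, the C/EBP-ATF element TTGCATCA, the nutrient-sensing response element TGATGAAAC of the Asns promoter and the cAMP response element TGACGTCA. The first 2 share CCACG and the CCAAT box, which ATTGG is on the other strand, and no match of 1 element overlapped a match of another in these windows. The stretches are 220 bases each up to the base before the start, 5′ to 3′ on the strand of the gene, with the fixed letters of each match in capitals.

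Hspa5, chr2:34771870-34772089 (plus strand): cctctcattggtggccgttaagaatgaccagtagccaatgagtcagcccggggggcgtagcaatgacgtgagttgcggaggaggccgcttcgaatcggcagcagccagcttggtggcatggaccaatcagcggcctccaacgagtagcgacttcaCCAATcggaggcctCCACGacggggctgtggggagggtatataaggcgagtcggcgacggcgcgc
Hsp90b1, chr10:86705445-86705664 (minus strand): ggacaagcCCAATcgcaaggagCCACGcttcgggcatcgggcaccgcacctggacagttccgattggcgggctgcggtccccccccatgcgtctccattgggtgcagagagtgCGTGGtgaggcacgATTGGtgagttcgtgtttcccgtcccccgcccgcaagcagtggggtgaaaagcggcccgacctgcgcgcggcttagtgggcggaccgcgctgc
Herpud1, chr8:94386209-94386428 (plus strand): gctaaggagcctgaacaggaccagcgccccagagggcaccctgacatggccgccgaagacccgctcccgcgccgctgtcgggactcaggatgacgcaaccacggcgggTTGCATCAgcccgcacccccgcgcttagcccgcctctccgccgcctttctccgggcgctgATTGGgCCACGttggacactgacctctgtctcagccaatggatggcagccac
Atf3, chr1:191183334-191183553 (minus strand): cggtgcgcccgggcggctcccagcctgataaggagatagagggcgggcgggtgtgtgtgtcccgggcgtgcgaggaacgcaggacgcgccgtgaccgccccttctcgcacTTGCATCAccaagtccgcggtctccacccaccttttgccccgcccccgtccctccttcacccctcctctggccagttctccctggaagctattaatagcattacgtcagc
Asns, chr6:7693210-7693429 (minus strand): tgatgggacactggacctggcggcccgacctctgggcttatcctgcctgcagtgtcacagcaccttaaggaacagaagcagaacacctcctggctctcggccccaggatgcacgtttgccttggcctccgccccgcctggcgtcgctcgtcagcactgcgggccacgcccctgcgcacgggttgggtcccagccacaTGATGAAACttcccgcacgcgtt

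Hspa5 held the first ER stress response element 65 bases before its start. Hsp90b1 held 2 of them, at 212 bases on the strand of the gene and, on the opposite strand, ending 89 bases before the start. This element was present in 0.119% of all windows. Herpud1 held the second form at 52 bases (0.0365% of all windows) and the C/EBP-ATF element at 112 bases. Atf3 also held the C/EBP-ATF element, at 110 bases (0.895% of all windows), and Asns held the nutrient-sensing element at 23 bases (0.247% of all windows). The unfolded protein response element (0.676% of all windows) and the cAMP response element (1.79%) had no match in the 10 member windows. A match is a run of letters and not a measured binding site.

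The arrays were of similar quality. The 75th percentile lay between 1203 and 2263 intensity units, 83.9 to 90.6% of probes were well above background and the mean correlation of an array with its group mates was 0.979 to 0.993. HFD-MTX50 mouse 1 lay at the edge of all of these ranges. Its array had the highest 75th percentile, the highest share of probes above background and the lowest correlation (0.9787). The next lowest correlation was 0.9789, in HFD-MTX50 mouse 5. The arrays lie on 6 slides of 4 positions. The slide that holds HFD mice 3 and 4 also holds HFD-MTX50 mice 1 and 2, and the other slides hold 1 group each, so that slide and group cannot be told apart in the comparisons with LFD or between the 2 treated groups. The 6 hepatocyte markers (Alb, Apoa1, Ttr, Cps1, Tat and Fgb) were measured in every mouse, with a summed level of 515 to 840 (the level at the 75th percentile is 1). The 4 erythroid markers summed to 15.6 to 22.5 in LFD, 10.0 to 22.2 in HFD and 0.839 to 1.31 in LFD-MTX50. HFD-MTX50 mice 1 to 3 summed to 1.12, 1.58 and 2.30, below all HFD mice, while mouse 4 lay within the range of the HFD mice and mouse 5 above it at 53.7. The 5 neutrophil markers summed to 0.996 to 1.31 in LFD, 1.02 to 2.08 in HFD, 1.08 to 6.90 in LFD-MTX50 and 1.17 to 49.5 in HFD-MTX50, with mouse 1 lowest and mouse 5 highest. In whole liver, fewer cells of a type and less RNA per cell cannot be told apart.

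Few members passed the test in any comparison of the 4 groups. With limma and Benjamini-Hochberg adjustment over all kept probes, 1 of 10 members passed an adjusted p of 0.05 in HFD vs LFD (28.3% of all genes tested passed it), 1 of 10 in LFD-MTX50 vs LFD (28.1%), 1 of 10 in HFD-MTX50 vs HFD (11.0%) and 1 of 10 in HFD-MTX50 vs LFD-MTX50 (16.1%). Whether methotrexate acted differently on the 2 diets was tested as an interaction, which was called for 0 of 10 members (26.7% of all genes), with a smallest adjusted p of 0.147 and no member at an unadjusted p under 0.05. The median difference of the members was -0.09, 0.19, 0.35 and 0.04 in the first 4 comparisons and that of all genes was 0.08, 0.10, -0.04 and -0.06. The share of members called was thus below that of all genes in the first pair of comparisons and close to it in HFD-MTX50 vs HFD. The study's methods name a 2-fold change and, for clustering, a p of at most 0.015, without saying whether this p was adjusted. At an unadjusted limma p of at most 0.015 with at least a 2-fold change, Asns alone passed, in HFD-MTX50 vs HFD. The share of all genes past this threshold was 2.87, 4.75, 1.32 and 2.75% in the 4 comparisons and 8.05% for the interaction. The comparisons share groups, so their results are not independent of each other.

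**Figure D1:**
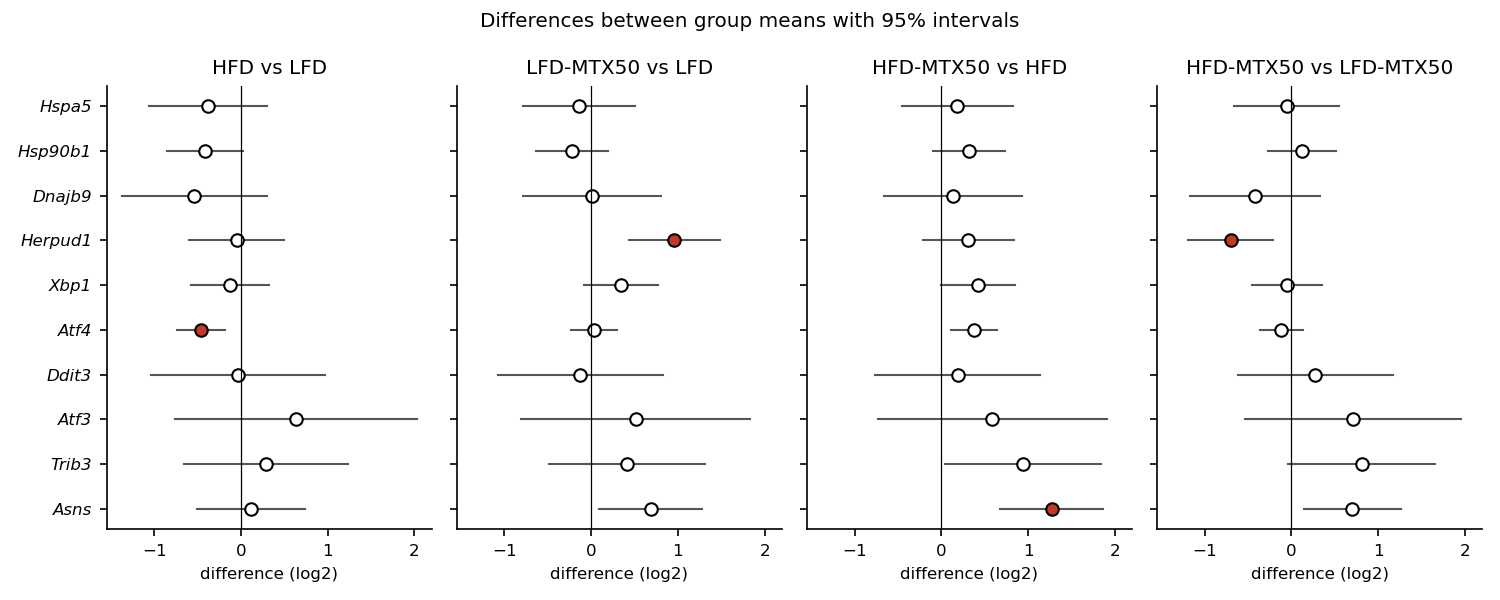
Difference of the group means (log2, x axis) for the 10 members (y axis) in 4 comparisons, with 95% intervals from the limma fit as lines; filled circles passed an adjusted p of 0.05 and open circles did not. Each panel has 1 filled circle: Atf4 at -0.46, Herpud1 at 0.96, Asns at 1.27 and Herpud1 at -0.70.

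The ER chaperones among the members did not pass the test in any comparison. Hspa5 encodes BiP, the main Hsp70 of the ER lumen, which also holds the stress sensors inactive. Its level was 4.46, 5.44, 4.64 and 5.90 in LFD mice 1 to 4, and 5.60, 4.59, 4.69, 5.13 and 4.85 in LFD-MTX50 mice 1 to 5. It was 4.81, 4.75, 4.43 and 4.92 in HFD mice 1 to 4, and 5.76, 4.61, 4.82, 4.37 and 5.02 in HFD-MTX50 mice 1 to 5. The 4 groups overlapped, and the range within LFD was wider than the distance of 0.38 between the highest and the lowest group mean. The means ran HFD (4.73 ± 0.21, SD, n = 4), HFD-MTX50 (4.92 ± 0.53, n = 5), LFD-MTX50 (4.97 ± 0.41, n = 5) and LFD (5.11 ± 0.68, n = 4), and no neighbours in that order differed beyond their spread. The difference with methotrexate was -0.14 on the low fat diet (95% interval -0.78 to 0.50) and 0.19 on the high fat diet (-0.46 to 0.83).

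Hsp90b1 encodes GRP94, the Hsp90 of the ER, and Dnajb9 encodes ERdj4, a J-domain partner of BiP. Hsp90b1 lay between 4.61 and 5.68 over the 18 mice, with group means of 4.73 ± 0.10 in HFD (n = 4), 4.92 ± 0.30 in LFD-MTX50 (n = 5), 5.05 ± 0.31 in HFD-MTX50 (n = 5) and 5.14 ± 0.43 in LFD (n = 4). The most apart were HFD and LFD, with a difference of -0.42 and an adjusted p of 0.137 in limma. Dnajb9 lay between 0.51 and 2.59, with means of 1.11 ± 0.36 in HFD, 1.25 ± 0.62 in HFD-MTX50, 1.65 ± 0.87 in LFD and 1.66 ± 0.49 in LFD-MTX50. Its second probe ordered LFD-MTX50 first as well (-2.32 ± 0.47) and HFD last (-3.10 ± 0.20), and the groups overlapped on both probes.

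These 3 chaperone genes varied together between mice of the same group. In LFD, mice 2 and 4 were high and mice 1 and 3 low: Dnajb9 stood at 2.16 and 2.59 in the first pair and at 0.81 and 1.02 in the second. Herpud1 split the same mice, with 4.74 and 4.82 against 3.88 and 3.90. Of the 20 other ER chaperone and foldase genes of the list described below, 13 and 18 lay above their own mean over 18 arrays in LFD mice 2 and 4, against 2 and 10 in LFD mice 1 and 3. The split was not limited to ER genes. Of 17 cytosolic heat shock genes, 15 and 16 lay above their mean in LFD mice 2 and 4, against 10 and 9 in LFD mice 1 and 3. After the group means were removed, Hspa5 correlated over the 18 arrays with Dnajb9 at r = 0.93 (Spearman's rho 0.92) and with Hsp90b1 at r = 0.93 (rho 0.90), and Hsp90b1 with Dnajb9 at r = 0.80 (rho 0.74). Without the 2 mice farthest from the median of the first gene these became 0.88, 0.89 and 0.72. Here and below, the group means for this check were still taken over all 18 arrays. They are given as descriptions: the arrays share a platform and a scaling, and 45 pairs of members were computed.

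**Figure D2:**
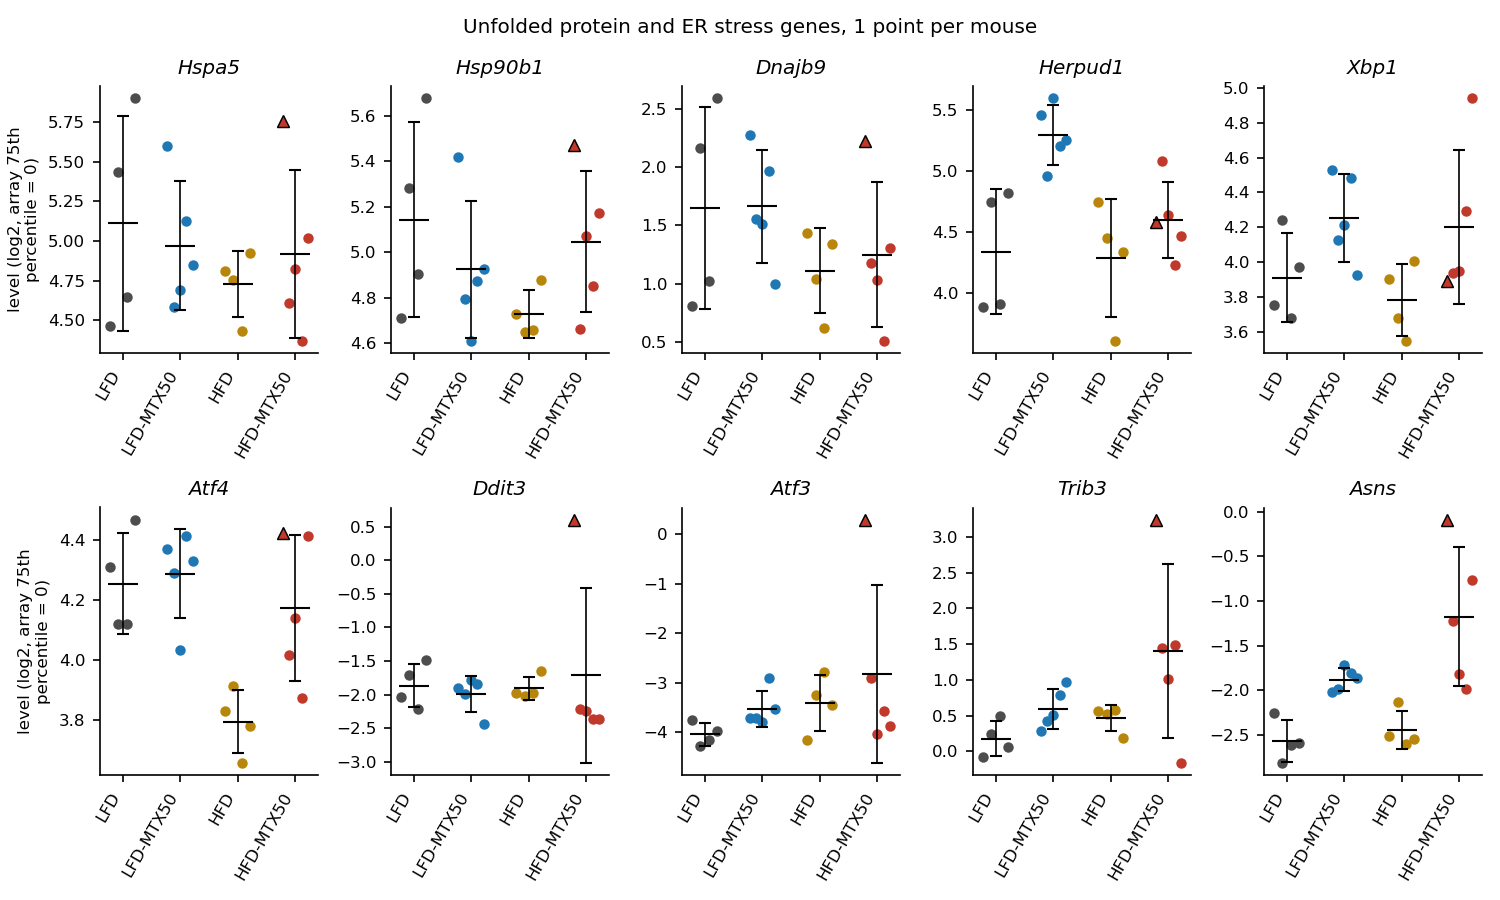
Level of each member (y axis, log2, 75th percentile of the array at 0) in the 4 groups (x axis), 1 point per mouse, with the mean and SD in black; the triangle is HFD-MTX50 mouse 1. The LFD points of Hspa5, Dnajb9 and Herpud1 fall into a high and a low pair, and the triangle lies far above the other HFD-MTX50 points for Ddit3 and Atf3.

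Herpud1 was the member that passed the test with methotrexate on the low fat diet. It encodes an ER membrane protein of the degradation machinery (ERAD), which moves misfolded proteins out to the proteasome. Its level was 3.88, 4.74, 3.90 and 4.82 in LFD mice 1 to 4, and 5.46, 4.96, 5.60, 5.20 and 5.26 in LFD-MTX50 mice 1 to 5. It was 4.75, 4.45, 3.60 and 4.33 in HFD mice 1 to 4, and 4.58, 5.08, 4.63, 4.22 and 4.46 in HFD-MTX50 mice 1 to 5. All 5 LFD-MTX50 mice lay above all LFD mice and above all HFD mice, and HFD-MTX50 overlapped with each of the other groups.

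Against LFD, Herpud1 was 1.94-fold higher in LFD-MTX50 (log2 difference 0.96, SE 0.25, limma adjusted p = 0.012, exact permutation p = 0.016, two-sided, n = 5 and 4). The 2 groups did not overlap for 2 of 10 members, Herpud1 and Asns, against 29.1% of all genes. In HFD-MTX50 vs HFD the difference was 0.31 (95% interval -0.21 to 0.83, adjusted p = 0.398), and between the mice of the shared slide it was 0.86 (2 against 2 mice, no test). Herpud1 was lower in HFD-MTX50 than in LFD-MTX50 by a difference of -0.70 (adjusted p = 0.0492, exact permutation p = 0.016), a call that was lost under 8 of 12 other ways of processing and in 13 of 18 fits without 1 array. The test of whether the treatment effect differed between the diets gave -0.65 (95% interval -1.39 to 0.09, adjusted p = 0.170). The rise on the low fat diet was 0.95 with slide as a random block (adjusted p = 0.121), a fit in which 1.735% of all genes were called. The erythroid sums were lower and the hepatocyte sums higher in LFD-MTX50 (747 to 840) than in LFD (603 to 705), and their part in the result was not tested. Of the 6 hepatocyte markers 2 were called higher and 0 lower (17.6% and 10.5% of all genes). The log2 means in LFD and LFD-MTX50 were 6.87 and 7.71 for Fgb, 4.39 and 5.12 for Apoa1 and 3.70 and 3.94 for Tat. They were 8.28 and 8.32 for Alb, 7.56 and 7.56 for Ttr and 3.58 and 3.57 for Cps1.

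Xbp1, the transcription factor that IRE1 activates by splicing, overlapped in all 4 groups. Its level ranged from 3.68 to 4.24 in LFD, 3.92 to 4.53 in LFD-MTX50, 3.54 to 4.00 in HFD and 3.89 to 4.94 in HFD-MTX50. The differences with methotrexate were 0.34 on the low fat diet (95% interval -0.08 to 0.77, adjusted p = 0.198) and 0.42 on the high fat diet (-0.0029 to 0.85, adjusted p = 0.162). The highest value, 4.94, was in HFD-MTX50 mouse 5, the mouse with the highest neutrophil sum, and the lowest of that group, 3.89, in mouse 1.

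Atf4 was the member called between the diets in untreated mice. It encodes the transcription factor at the centre of the integrated stress response. Its level was 4.31, 4.12, 4.12 and 4.47 in LFD mice 1 to 4, and 4.37, 4.29, 4.04, 4.41 and 4.33 in LFD-MTX50 mice 1 to 5. It was 3.83, 3.91, 3.66 and 3.78 in HFD mice 1 to 4, and 4.42, 4.02, 4.14, 3.87 and 4.41 in HFD-MTX50 mice 1 to 5. All 4 HFD mice lay below every mouse of the 2 low fat diet groups, and 4 of 5 HFD-MTX50 mice lay above all HFD mice.

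In HFD vs LFD, Atf4 was lower by a log2 difference of -0.46 (1.38-fold, SE 0.13, limma adjusted p = 0.019, exact permutation p = 0.029, two-sided, the smallest that 4 against 4 mice can give). It was the only member of the 10 whose groups did not overlap, against 40.3% of all genes. The second Atf4 probe gave -0.48 (adjusted p = 0.024). The summed hepatocyte markers were lower in HFD (515 to 581) than in LFD (603 to 705) as well, and their part in the result was not tested. The call was lost after quantile normalization (-0.26, adjusted p = 0.181), with the table of values of the series (-0.29, adjusted p = 0.150), with slide as a random block (-0.47, adjusted p = 0.116) and without LFD mouse 4, HFD mouse 3 or HFD mouse 4 (adjusted p of 0.060, 0.067 and 0.051). In these fits 19.2, 27.5, 1.955, 18.3, 11.45 and 13.0% of all genes were called, in that order. With methotrexate on the high fat diet the 2 probes disagreed: the brighter gave 0.38 (adjusted p = 0.058) and the dimmer 0.06 (adjusted p = 0.786). The dimmer probe was also lower in HFD-MTX50 than in LFD-MTX50 (-0.52, adjusted p = 0.016), where the brighter gave -0.11 (adjusted p = 0.515).

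Asns was the member that passed the test with methotrexate on the high fat diet. It encodes asparagine synthetase, a target of ATF4 that makes asparagine from aspartate and glutamine. Its level was -2.25, -2.81, -2.61 and -2.59 in LFD mice 1 to 4, and -2.02, -1.99, -1.72, -1.80 and -1.86 in LFD-MTX50 mice 1 to 5. It was -2.52, -2.14, -2.60 and -2.55 in HFD mice 1 to 4, and -0.09, -1.23, -1.82, -1.99 and -0.76 in HFD-MTX50 mice 1 to 5. Every treated mouse lay above every untreated mouse, and the SD was 0.78 in HFD-MTX50 and 0.13 in LFD-MTX50.

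In HFD-MTX50 vs HFD, Asns was 2.42-fold higher (log2 difference 1.27, SE 0.28, limma adjusted p = 0.015, exact permutation p = 0.016, two-sided, n = 5 and 4). It was the only member without overlap there, against 11.4% of all genes. The highest Asns levels of the group were in mouse 1 (-0.09), which had its lowest neutrophil sum (1.17), and in mouse 5 (-0.76), which had its highest (49.5). The part of the neutrophil and erythroid markers in the result was not tested. Between the mice of the shared slide the difference was 1.92 (2 against 2 mice). With slide as a fixed block it was 1.92 with an adjusted p of 0.099, in a fit that called 0% of all genes. The call was also lost with only the HFD and HFD-MTX50 arrays in the fit (adjusted p = 0.089, 0% of all genes called). It was lost as well without HFD mouse 3 or 4 (0.062 and 0.057, with 1.53 and 1.439% of all genes called). It held without HFD-MTX50 mouse 1 (1.00, adjusted p = 0.014, 15.08% of all genes called). On the low fat diet the difference with methotrexate was 0.69 (1.61-fold, adjusted p = 0.073, exact permutation p = 0.016, two-sided), and it stayed uncalled under 11 of 12 other ways of processing (adjusted p up to 0.276) and in 16 of 18 fits without 1 array. The call was gained with only those 2 groups in the fit (adjusted p = 0.005) and without HFD-MTX50 mouse 1 (0.020) or mouse 4 (0.047). The difference between the 2 treatment effects was 0.59 (95% interval -0.25 to 1.43, adjusted p = 0.272).

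Ddit3 and Atf3 were set apart by 1 mouse, and Trib3 was highest in the same mouse. Ddit3 encodes CHOP, a transcription factor tied to cell death under lasting ER stress, Atf3 encodes a stress-induced transcription factor, and Trib3 encodes a pseudokinase induced by ATF4 and CHOP. Ddit3 stood at 0.61 in HFD-MTX50 mouse 1 and at -2.21, -2.24, -2.36 and -2.36 in mice 2 to 5 of that group. It ranged from -2.22 to -1.49 in LFD, -2.44 to -1.79 in LFD-MTX50 and -2.01 to -1.65 in HFD. Mouse 1 was thus above every other of the 18 mice, and the other 4 mice of its group lay below all HFD mice.

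Atf3 stood at 0.30 in HFD-MTX50 mouse 1 and at -2.90, -4.03, -3.57 and -3.88 in mice 2 to 5. It ranged from -4.28 to -3.74 in LFD, -3.79 to -2.90 in LFD-MTX50 and -4.15 to -2.78 in HFD. Of the LFD-MTX50 mice 4 of 5 lay above all LFD mice (difference 0.51, limma adjusted p = 0.550, exact permutation p = 0.032, two-sided). The spread that the 4 groups share in limma includes the SD of 1.79 of HFD-MTX50. Without HFD-MTX50 mouse 1 the adjusted p of this difference was 0.152.

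Trib3 stood at 3.24, 1.44, 1.01, 1.49 and -0.16 in HFD-MTX50 mice 1 to 5, and at 0.56, 0.53, 0.59 and 0.19 in HFD mice 1 to 4. The LFD mice lay at -0.08 to 0.50 and the LFD-MTX50 mice at 0.28 to 0.97. In the treated mice on the high fat diet 4 of 5 lay above all HFD mice and mouse 5 below all of them, with a difference of 0.94 (1.92-fold, adjusted p = 0.142). Without mouse 5 the difference was 1.33 (adjusted p = 0.037) and without mouse 1 it was 0.48 (adjusted p = 0.240).

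HFD-MTX50 mouse 1 had the highest level in its group of 8 of the 10 members. The exceptions were Herpud1 (4.58, the third of 5) and Xbp1 (3.89, the lowest). All 10 members had a positive difference in HFD-MTX50 vs HFD, and without this mouse 6 were positive and 4 negative, with a median of 0.26 in place of 0.35. The negative ones were Ddit3 (-0.39, adjusted p = 0.104), Atf3 (-0.19), Dnajb9 (-0.10) and Hspa5 (-0.03). In this mouse 18 of the 20 other ER chaperone genes, 22 of 25 other ERAD and translocation genes and 20 of 26 other ATF4 and CHOP targets lay above their own mean over the 18 arrays, against 3 of 17 cytosolic heat shock genes. Untreated LFD mouse 4 had 18 of these ER chaperone genes and 24 of these ERAD and translocation genes above their mean. LFD-MTX50 mouse 1 had 17 and 21. For the ATF4 and CHOP targets the next highest count was 18, in LFD-MTX50 mouse 5. Of the heat shock genes, LFD-MTX50 mice 2 and 5 had 3 and 2. The share of all genes above their mean was not computed. The neutrophil sum of HFD-MTX50 mouse 1, 1.17, was the lowest of its group, and its hepatocyte sum of 546 was also the lowest.

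**Figure D3:**
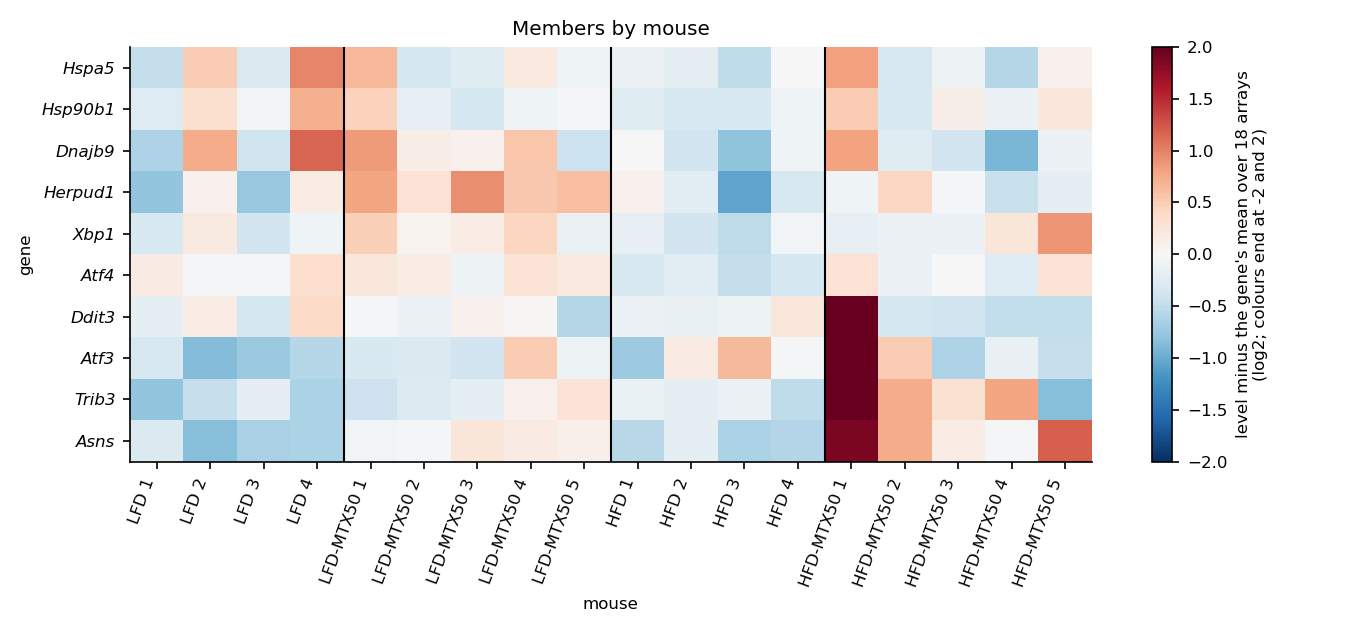
Level of each member (rows) in each of the 18 mice (columns, grouped by diet and treatment) minus the mean of the gene over all mice, as colour on a log2 scale. HFD-MTX50 mouse 1 is dark red for Ddit3, Atf3, Trib3 and Asns, and LFD mice 2 and 4, LFD-MTX50 mouse 1 and HFD-MTX50 mouse 1 are red for Hspa5, Hsp90b1 and Dnajb9.

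The correlations among Ddit3, Atf3 and Trib3 depended on this mouse far more than those among the chaperones. With group means removed, r over 18 arrays was 0.87 for Ddit3 and Atf3 (rho 0.48), 0.81 for Atf3 and Trib3 (rho 0.50) and 0.72 for Ddit3 and Trib3 (rho 0.13). Without the 2 mice farthest from the median of the first gene they were 0.46, 0.51 and 0.30. Over the 17 arrays without HFD-MTX50 mouse 1, with the group means taken anew, they were 0.02, 0.32 and -0.23. For Hspa5 and Dnajb9 the value went from 0.93 to 0.91, and for Ddit3 and Dnajb9 from 0.66 to 0.76. Xbp1 ran against Trib3, at -0.62 over 18 arrays (rho -0.42), -0.67 over 17 and -0.40 without the 2 mice farthest from the median of Xbp1.

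**Figure D4:**
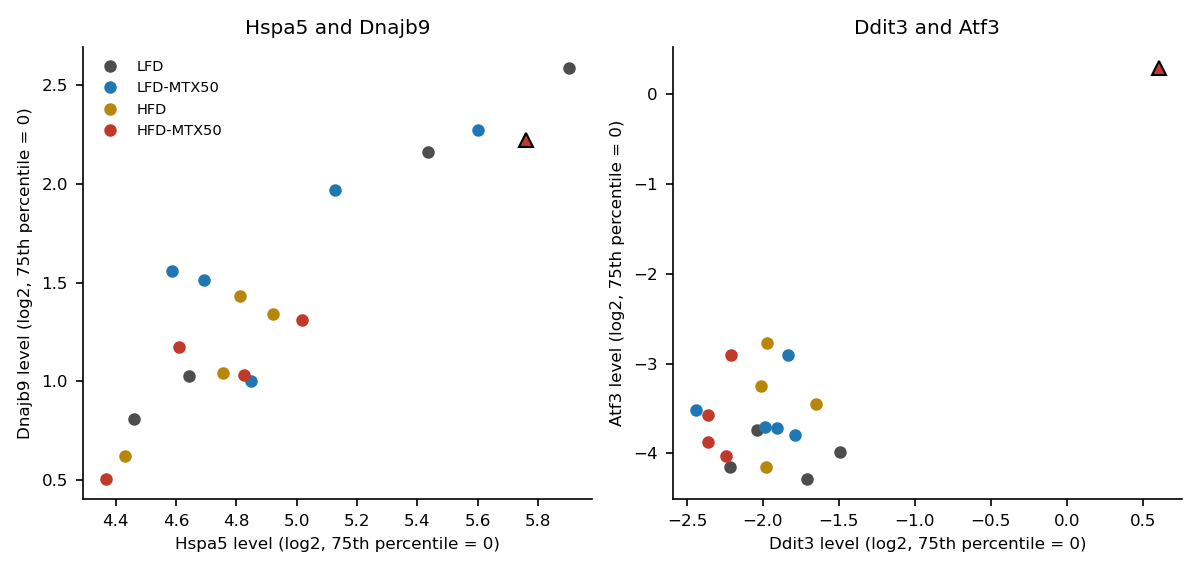
Levels (log2, 75th percentile of the array at 0) of Hspa5 against Dnajb9 and of Ddit3 against Atf3, 1 point per mouse, coloured by group; the triangle is HFD-MTX50 mouse 1. The first pair rises together over all mice, and in the second the triangle at 0.61 and 0.30 lies apart from the other 17 mice.

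The genes whose level was most like that of a member over the 18 arrays were looked up among all named genes (Pearson's r, a description). For Hspa5 they were Creld2, an ER protein with protein disulfide isomerase activity (r = 0.95), and Piga (0.93). For Hsp90b1 they were Hspa5 (0.90) and Manf, a secreted ER stress protein (0.89), and for Dnajb9 Hspa5 (0.92) and Rabl6 (0.91). Creld2 stood at 1.74, 3.27, 2.10 and 4.11 in LFD mice 1 to 4, the same high and low pairs as Hspa5. Without HFD-MTX50 mouse 1 the r with Creld2 was 0.94.

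For Ddit3 the most alike were Hid1 (r = 0.89) and Nupr1, a stress-induced nuclear protein (0.89), and without HFD-MTX50 mouse 1 these were 0.13 and 0.20. Nupr1 stood at 2.54 in that mouse and between -3.79 and -1.83 in the other 17. For Atf3 they were Sprr1a (0.95, and 0.80 without this mouse) and Spink1 (0.93 and 0.70), and for Trib3 S100g (0.87 and 0.58) and Pwwp3b (0.87 and 0.64). Atf4 was most like Fbxw7 (0.93) and Rc3h2 (0.92), Xbp1 most like Hspb8 (0.84) and Rp9 (0.83), Asns most like Ccl6 (0.89) and Tceal9 (0.87), and Herpud1 most like Ccdc97 (0.87) and Setd4 (0.87).

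The wider pathway was read on 9 lists of genes, of which 160 of 161 are on the array. Of 22 ER chaperone and foldase genes, 0 were higher and 1 lower in HFD vs LFD, where 3521 of 19594 genes were higher and 10.4% lower. Ppib, a prolyl isomerase of the ER, was lower there (-0.50, adjusted p = 0.0098). In HFD-MTX50 vs HFD it was the only 1 of the 22 called, and it was higher (0.63, adjusted p = 0.0082). There 4.83% of all genes were called higher and 6.13% lower. Of the 22 genes, 16 had a positive and 6 a negative difference in HFD-MTX50 vs HFD. The mean of Ppib went from 3.14 in LFD to 2.64 in HFD and 3.27 in HFD-MTX50. With methotrexate on the low fat diet the 1 gene called was Canx, the membrane lectin calnexin, which was lower (-0.78, adjusted p = 0.016), against 17.6% of all genes higher and 10.5% lower. Between the treated groups, HFD-MTX50 vs LFD-MTX50, Canx was higher (0.96), and Ero1a (-0.73), an oxidase that drives disulfide formation, and Sil1 (-0.32), a nucleotide exchange factor of BiP, were lower, against 7.37% of all genes higher and 8.75% lower. The treatment effect differed between the diets for 2 of the 22, Ppib (0.67, limma adjusted p = 0.011) and Canx (0.89, adjusted p = 0.040). The difference was called positive for 8.66% of all genes and negative for 18.1%.

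Of 27 ERAD and translocation genes, 2 were higher and 4 lower in HFD vs LFD, where 3521 of 19594 genes were higher and 10.4% lower. The shares of all genes given for the ER chaperones hold for the other comparisons of this list and of those that follow. Srprb (0.75) and Spcs2 (0.59), parts of the signal recognition particle receptor and of the signal peptidase, were higher, and Sec31a (-0.60), a coat protein of ER exit vesicles, and Edem3 (-0.57), a mannosidase of ERAD, were lower. Herpud1 and Spcs2 (0.63) were higher in LFD-MTX50 vs LFD, and Ubxn4 (-0.81) and Sec31a (-0.40) were lower. Srprb was the only 1 called in HFD-MTX50 vs HFD, and it was lower (-0.53, adjusted p = 0.042). In HFD-MTX50 vs LFD-MTX50, 0 were higher and 2 lower, Herpud1 and Selenos (-0.52). The treatment effect differed between the diets for 4 of the 27, with 3 positive differences and 1 negative.

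Of 18 sensors and transducers, Xbp1 among them, 0 were higher and 3 lower in HFD vs LFD: Ppp1r15b (-0.52), a subunit of the eIF2alpha phosphatase, the amino acid sensing kinase Eif2ak4 (-0.46) and Eif2s1 (-0.50), which encodes eIF2alpha. The sensor Atf6 was higher in LFD-MTX50 vs LFD (0.54, adjusted p = 0.043), and Creb3l3 (-0.56), a liver transcription factor of the same family as Atf6, Eif2s1 (-0.43) and Eif2ak2 (-0.32), the kinase PKR, were lower. In HFD-MTX50 vs HFD limma called 0 of these genes, and 1 had an unadjusted p under 0.05. In HFD-MTX50 vs LFD-MTX50, Creb3l3 (0.62) and Eif2ak2 (0.60) were higher and Atf6b (-0.40) lower. For 3 of the 18 the treatment effect differed between the diets, with 2 positive differences and 1 negative. Of 7 transcripts that IRE1 is known to degrade, 2 were higher (Hgsnat, 0.56, and Scara3, 0.56) and 1 lower (Pmp22, -0.62) in LFD-MTX50 vs LFD, 0 passed in limma in HFD-MTX50 vs HFD and in HFD vs LFD (1 at an unadjusted p under 0.05 in each), and Scara3 was lower in HFD-MTX50 vs LFD-MTX50 (-0.62).

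Of 31 targets of ATF4 and CHOP, members included, 4 were higher and 0 lower in LFD-MTX50 vs LFD (17.6% and 10.5% of all genes). Chac1, an enzyme that degrades glutathione, rose by 1.40 (adjusted p = 0.0014), from a mean of -1.52 ± 0.21 in LFD (n = 4) to -0.12 ± 0.48 (n = 5), and Cebpb (1.04), Cebpg (0.52) and Atf5 (0.51), all transcription factors, were the others. Chac1 was also higher in HFD than in LFD (1.08, adjusted p = 0.0069), with Psat1 (0.75) of serine synthesis and the amino acid transporter Slc7a5 (0.46), while Atf4 and Psph (-0.39, chosen after its value was seen) were lower. In HFD-MTX50 vs HFD, 4 were higher (Asns, Mthfd2 at 1.23, Cebpg at 0.48 and Eif4ebp1 at 0.45) and 2 lower (Psat1 at -0.62 and Slc7a5 at -0.42), Eif4ebp1 and Slc7a5 being outside the rule for named genes. Mthfd2 is a mitochondrial enzyme of the folate cycle, on which methotrexate acts, and its mean was -4.12 ± 0.065 in HFD (n = 4) and -2.89 ± 0.97 in HFD-MTX50 (n = 5). In HFD-MTX50 vs LFD-MTX50, 3 were higher, Slc7a11 (1.19), the cystine transporter, Mthfd2 (1.09) and Aldh1l2 (0.72), and 0 lower.

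Chac1, Mthfd2, Psat1 and Slc7a5 were the 4 of these 31 for which the treatment effect differed between the diets. The difference was -1.12 for Chac1 (adjusted p = 0.019), 1.66 for Mthfd2 (0.027), -0.75 for Psat1 (0.022) and -0.50 for Slc7a5 (0.038), against 8.66% of all genes with a positive and 18.1% with a negative difference. Of 12 cytosolic tRNA synthetases, a class that ATF4 induces, 0 were higher and 4 lower in HFD vs LFD (Eprs -0.61, Tars -0.59, Iars -0.50 and Lars -0.36). Sars (0.36) was higher in LFD-MTX50 vs LFD, Mars1 (-0.37) was lower in HFD-MTX50 vs LFD-MTX50, and 0 passed in HFD-MTX50 vs HFD, with 3 at an unadjusted p under 0.05.

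Stress genes of other compartments were read beside them. Of 17 cytosolic heat shock genes, 1 was higher and 5 lower in LFD-MTX50 vs LFD (17.6% and 10.5% of all genes). Hspb1, the small heat shock protein Hsp27, was lower there by -1.66 (adjusted p = 0.0014), with Fkbp4 (-0.84) and Hspa4l (-0.67), both co-chaperones, while Hspb8 was higher (0.68). Of the 17, limma called 0 in HFD-MTX50 vs HFD and 0 in HFD vs LFD, with 1 and 0 at an unadjusted p under 0.05. The effect of methotrexate on Hspb1 differed between the diets by 1.52 (adjusted p = 0.012). Of 10 mitochondrial chaperones and proteases, 0 were higher in HFD vs LFD or LFD-MTX50 vs LFD, and 3 and 4 were lower, among them the protease subunit Clpx (-0.94 and -0.93), Hspe1 (-0.53 and -0.74), which encodes Hsp10, and Yme1l1 (-0.34 and -0.47).

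Of 16 immediate early genes, 6 were higher and 1 lower in LFD-MTX50 vs LFD (17.6% and 10.5% of all genes), with Egr1 (1.68), Gadd45b (1.16), Ier3 (1.10) and Junb (1.06) leading. Myc (1.48) and Ier3 (1.28) were higher in HFD-MTX50 vs HFD, and 0 were lower. Junb alone was called in HFD vs LFD (0.57), and its treatment effect was smaller on the high fat diet (-1.11, adjusted p = 0.011).

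**Figure D5:**
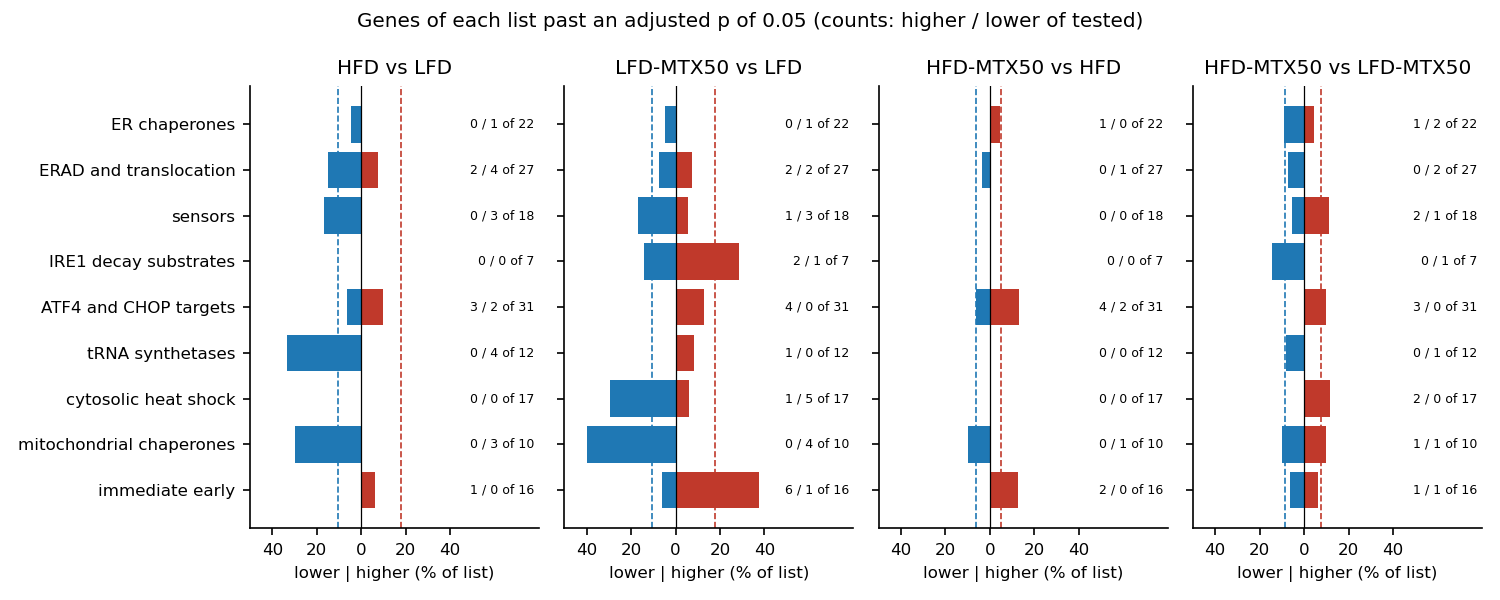
Share of each gene list past an adjusted p of 0.05 in limma (x axis, percent; lower to the left in blue, higher to the right in red) for 9 lists (y axis) and 4 comparisons, with the counts at the right; dashed lines give the share of all genes called in that direction. In LFD-MTX50 vs LFD the immediate early genes reach farthest to the right (6 of 16) and the mitochondrial chaperones farthest to the left (4 of 10).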

How the data were processed

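Liver RNA of 18 mice was hybridized to 18 one-colour Agilent 4x44K arrays, 1 per mouse. Per the labels RNA was taken up in Trizol, cleaned on RNeasy columns and amplified with a low RNA input kit, whereas the methods name RNeasy and the Quick Amp kit. The deposited scanner files give linear intensities of each spot. The authors used Agilent Feature Extraction 10.7.3.1, which, per the file headers, subtracted background and removed trends within each array, so that the arrays were not normalized against each other. The methods name GeneSpring without a normalization.

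The log2 of the processed signal was reduced by the 75th percentile of each array. Outlier spots (124 to 294 an array) were dropped, no member spot was saturated, and replicate spots were averaged by probe. Probes well above background on at least 4 arrays were kept (35739 of 39429). Accessions were matched to RefSeq symbols of GRCm38.p6 for 28019 probes (71.1%), and each gene was read on its brightest kept probe (19594 genes). limma 3.58.1 in R 4.3.3 fitted 1 model of the 4 groups, adjusting p by Benjamini-Hochberg across the kept probes, with empirical Bayes variances (prior degrees of freedom 2.77). Exact permutation tests of group means (scipy 1.17.1) were two-sided. The steps were tested on simulated data.

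The members and lists were chosen with earlier results of these data known. Named genes are every member, up to 4 genes per list and comparison with the largest difference among those past the adjusted p (otherwise up to 2 with the smallest p), and the 2 genes most like each member. Alternatives were normexp background correction (offset 50), quantile normalization, the series value table, scaling to the median of the probes detected on every array, 2 filters on dim probes, robust variances with a trend, only the groups compared, slide as a random or fixed block, a replicate block, an unadjusted p of at most 0.015 with a 2-fold change, the mean of a gene's probes and leaving out each array. Normexp was planned on the mean spot signal and run on the median spot signal, which is the spot signal in the files used here. The correlations without HFD-MTX50 mouse 1 were added after the data were seen. The number of arrays, 4 or 5 a group, and the placing of groups on slides limit the precision. The methods state that mice were housed singly before dosing, and litters are not given in the sources used here.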

Additional observations from a re-analysis of the deposited data

Results flagged for a closer look

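In groups of 4 or 5 mice the highest or lowest value was compared with the others, and 4 of 40 sets of values (10 members in 4 groups) had a mouse far from the rest; chance flags about 1 in 20 groups. Ddit3 stood at 0.61 in HFD-MTX50 mouse 1, a gap of 2.82 to the nearest mouse of the group, and Atf3 stood at 0.30 in the same mouse, a gap of 3.20. Ddit3 in HFD mouse 4 was the highest of its group at -1.65, a gap of 0.33 in a group whose other 3 mice nearly coincided, and Trib3 was the lowest of its group in that mouse at 0.19, a gap of 0.34.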

How the results depend on the processing

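Over 50 results for single members and 1500 recomputed values, 1452 kept their side of the threshold, 37 lost the call, 11 gained it and 0 reversed a call. Most results were uncalled in the main fit and had no call to lose. Under other processing and without 1 array, Atf4 in HFD vs LFD lost its call in 5 of 12 and 3 of 18 fits. Herpud1 lost it in 3 of 12 and 0 of 18 in LFD-MTX50 vs LFD, and in 8 of 12 and 13 of 18 in HFD-MTX50 vs LFD-MTX50. Asns in HFD-MTX50 vs HFD lost it in 3 of 13 and 2 of 18. In HFD vs LFD 1 member was called, and 0 were called with normexp background correction, quantile normalization, the series value table, slide as a random block or an unadjusted p of at most 0.015 with a 2-fold change. The share of all genes called in these fits was 0.01, 19.2, 27.5, 1.955 and 2.87%, in that order. Without 1 array the count ran from 0 to 1 and the share of all genes from 11.45 to 32.05%. In LFD-MTX50 vs LFD 0 were called with normexp, slide as a random block or the unadjusted p with 2-fold (1.73, 1.735 and 4.75% of all genes). With only the groups compared 2 were called (31.73% of all genes). Leaving out 1 array gave 1 to 2, with 16.25 to 31.7% of all genes. In HFD-MTX50 vs HFD 0 were called with normexp, only the groups compared or slide as a fixed block, and 0% of all genes were called in each of these fits. With scaling to the median or only probes above background on all 18 arrays 2 were called, Asns and Atf4 (11.48 and 14.09% of all genes). Without 1 array the count ran from 0 to 2 and the share of all genes from 1.439 to 15.49%. In HFD-MTX50 vs LFD-MTX50 0 were called with normexp, scaling to the median, no filter, only the groups compared, slide as a random block, the replicate block, the unadjusted p with 2-fold or the mean of a gene's probes. The share of all genes called in these fits was 0.005, 14.6, 14.26, 0.046, 0.092, 14.82, 2.75 and 14.89%, in that order. Without 1 array the count ran from 0 to 1 and the share of all genes from 6.941 to 21.8%. The difference between the treatment effects had 0 in every fit, where the share of all genes ran from 0% with normexp to 31.63% without HFD-MTX50 mouse 1. The cause of these changes was not tested.

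With a replicate block the 5 comparisons called 1, 1, 1, 0 and 0 members, and 27.24, 27.52, 5.243, 14.82 and 25.87% of all genes. Deviations of same-numbered mice correlated at -0.31 to 0.25 over 25 pairs, and those of differently numbered mice at -0.26 to 0.35. The numbers were not treated as pairs in the main fit, and these correlations cannot show whether they stand for a pairing. Normexp moved the median of all genes to 0.38, 0.47, 0.39 and 0.34 in the first 4 comparisons from 0.08, 0.10, -0.04 and -0.06, and scaling to the median moved that of the difference between treatment effects from -0.11 to 0.03. Every member was flagged well above background on all arrays, and normexp still lost the calls of Atf4 in HFD vs LFD (adjusted p = 0.375), Herpud1 in LFD-MTX50 vs LFD (0.194) and Asns in HFD-MTX50 vs HFD (0.381). With normexp 0.01, 1.73 and 0% of all genes were called in these comparisons. The untreated mice were not said to be injected, and groups largely lie on slides of their own.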
